A study of Mus musculus with 6 samples.

Results

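The calcineurin pathway genes described here are 10: the catalytic subunit genes Ppp3ca and Ppp3cb, the regulatory subunit gene Ppp3r1, the inhibitor genes Rcan1, Rcan2 and Rcan3, and the transcription factor genes Nfatc1, Nfatc2, Nfatc3 and Nfatc4. They were listed by name, and each was read by the probe set of a whole-transcript array whose 1 annotated gene symbol was that gene. All 10 had 1 such probe set each, so 10 probe sets of the 35557 in the table, and of the 23410 with a gene symbol that were tested, are at issue. No transcript of the list passed the test for a difference between genotypes.

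The hearts came from mice aged 8 weeks. In one group were 3 hearts of Ppif-/- mice, a global knockout of the gene for cyclophilin D moved onto C57BL/6 from Sv129 by backcrossing, and in the other 3 hearts of wild-type (WT) C57BL/6 mice. Both groups were otherwise untreated per the labels. The knockout covers every cell type of the heart, and the sources used here do not give littermate status, sex or the hour of collection. Each heart was read on 1 array, and the number of arrays limits the precision. Values are log2 expression, on which a difference of 1 is a doubling, and array medians lay between 6.03 and 6.11. Ppif itself was at 6.00, 6.25 and 6.44 in the Ppif-/- hearts and at 11.44, 11.28 and 11.49 in the WT hearts, which matches the labels. Markers of heart muscle were on average high in both genotypes: the mean over 10 cardiomyocyte markers was 12.25 to 12.27 in Ppif-/- and 12.24 to 12.27 in WT hearts. Of these markers Myl7 was dim, at 4.96 to 5.28 in Ppif-/- and at 4.86 to 5.03 in WT hearts.

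Calcineurin is a phosphatase switched on by calcium and calmodulin. It is built from a catalytic and a regulatory subunit, and it removes phosphates from NFAT proteins, which then enter the nucleus and act on genes with other factors. In heart muscle this pathway is known for driving hypertrophic growth. The RCAN proteins bind calcineurin and restrain it, and Rcan1 is itself a known NFAT target, through a second transcription start inside the gene, so that its transcript is widely used as a readout of calcineurin activity.

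The Rcan1 probe set is annotated with RefSeq transcripts of both forms of the gene, long and short, and it returns a single value for them. The sequences before these starts are shown because this is where the long and the short transcript part ways, and because the downstream one is the stretch known for NFAT control. They are the 250 bases before each of the 2 starts in RefSeq (build GRCm38.p6, minus strand, 5′ to 3′), at chr16:92466170-92466419 for the upstream start and chr16:92400079-92400328 for the downstream start, which lies 66091 bases further along the gene. Capitals mark GGAAA, the core of NFAT sites, or TTTCC, the same letters on the other strand; matches do not overlap here.
Rcan1 upstream start: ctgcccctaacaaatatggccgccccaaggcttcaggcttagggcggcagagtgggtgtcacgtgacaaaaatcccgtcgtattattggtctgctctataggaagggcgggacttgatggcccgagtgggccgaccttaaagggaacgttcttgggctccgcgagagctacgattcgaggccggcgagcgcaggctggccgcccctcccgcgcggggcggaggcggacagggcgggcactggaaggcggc
Rcan1 downstream start: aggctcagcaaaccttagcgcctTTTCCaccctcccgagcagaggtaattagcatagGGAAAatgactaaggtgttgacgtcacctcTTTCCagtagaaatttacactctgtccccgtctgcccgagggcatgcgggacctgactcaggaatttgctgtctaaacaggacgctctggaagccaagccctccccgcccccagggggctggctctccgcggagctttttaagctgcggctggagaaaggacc

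The window of the downstream start held 3 matches and that of the upstream start held 0. Of the 32851 windows of the same length in the RefSeq table, 55.6% held at least 1 match, 6.39% held 3 or more and 44.4% held none. A match is a run of letters and not a site. RefSeq windows were found for 8 of the 10 genes, 13 windows in all, and 8 of these held the letters. Ppp3cb had 3 matches, Nfatc4 had 3, and 1 of the 2 windows of Nfatc2 had 3, while the Ppp3r1 window had 0. Rcan2 had 2, 0 and 0 in its 3 windows and Rcan3 had 1.

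For the 3 listed subunit genes of calcineurin the estimates were close to 0, while the gamma catalytic gene Ppp3cc, which is not on the list, is given further below. Ppp3ca, which encodes the alpha isoform of the catalytic subunit, was at 9.89, 9.92 and 9.90 in the Ppif-/- hearts and at 9.84, 10.01 and 9.88 in the WT hearts. All 3 Ppif-/- hearts lay inside the WT range. The difference, Ppif-/- minus WT, was -0.01 ± 0.07 (SE), or 99.6% of the WT level with a 95% interval of 89.0% to 112%. Its adjusted p was 0.989.

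Ppp3cb, the gene of the beta isoform, which is known as the catalytic form needed for the hypertrophic response of mouse heart, was at 10.52, 10.67 and 10.45 in Ppif-/- and at 10.57, 10.45 and 10.60 in WT hearts. The highest and the lowest heart were both Ppif-/-. The difference was 0.01 ± 0.08, or 101% of WT (95% interval 88.0% to 115%, adjusted p = 0.985). Ppp3cb shares chromosome 14 with Ppif, with 91 genes of the gene table between them. Of the 32 of those read by a probe set of their own, 0 passed the limma threshold and 1 had a nominal p under 0.05.

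Ppp3r1, the gene of the calcium-binding regulatory subunit, was at 8.88, 8.89 and 8.71 in Ppif-/- hearts and at 8.96, 8.90 and 8.84 in WT hearts. The groups overlapped, with the lowest value in Ppif-/- heart 3. The difference of -0.07 ± 0.08 had a 95% interval of 84.1% to 108% of the WT level (adjusted p = 0.762). Across Ppp3ca, Ppp3cb and Ppp3r1, the 95% intervals lay between 84.1% and 115% of WT.

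The inhibitor genes held the 2 of the 10 members whose groups did not overlap, beside 19.8% of all tested probe sets without overlap. Rcan1 was at 9.78, 9.63 and 9.29 in the Ppif-/- hearts and at 9.93, 10.10 and 10.11 in the WT hearts. Every Ppif-/- heart was below every WT heart, by 0.15 at the nearest pair, and the Ppif-/- hearts spanned 0.49 against 0.18 for WT. Group levels were 9.57 ± 0.25 in Ppif-/- and 10.05 ± 0.10 in WT hearts (mean ± SD, n = 3 each). The difference of -0.48 ± 0.13 placed Ppif-/- hearts at 71.5% of the WT level (95% interval 58.4% to 87.6%). In limma the nominal p, before adjustment, was 0.00528 and the adjusted p 0.152, so the difference did not pass: 3.47% of all tested probe sets had a p as small, and the largest p that passed was 0.000541. In heart tissue, fewer cells of a type and less RNA per cell cannot be told apart, and the probe set does not separate the 2 Rcan1 transcripts.

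The size of the lower Rcan1 value leaned on 1 heart. Its direction could not turn on leaving out 1 heart, since the groups did not overlap. Without Ppif-/- heart 3 the difference was -0.35 (adjusted p = 0.264), and without Ppif-/- heart 1 it was -0.59 (adjusted p = 0.112). Over all 16 other settings of the fit the difference stayed between -0.59 and -0.35 and the adjusted p between 0.0807 and 0.316. Several of these settings change only the variance, the block or the probe sets tested, and they leave the estimate as it was.

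Rcan2, the family member known from heart, skeletal muscle and brain, was at 11.16, 11.11 and 11.08 in the Ppif-/- hearts and at 11.24, 11.31 and 11.27 in the WT hearts. These groups did not overlap either, with a gap of 0.08 between them. The spread was small within both genotypes: 5.12% of tested probe sets had a lower residual SD than the 0.04 of Rcan2. The difference of -0.15 ± 0.06 corresponded to 89.9% of WT (95% interval 81.1% to 99.7%). It did not pass in limma (adjusted p = 0.37), and 12.05% of tested probe sets had a p as small.

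Rcan3, the third RCAN gene, was at 7.08, 7.25 and 7.20 in Ppif-/- and at 7.18, 7.18 and 7.28 in WT hearts. The groups overlapped and the difference was -0.04 ± 0.07, or 97.4% of WT (86.5% to 110%). Its adjusted p was 0.889.

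**Figure D1:**
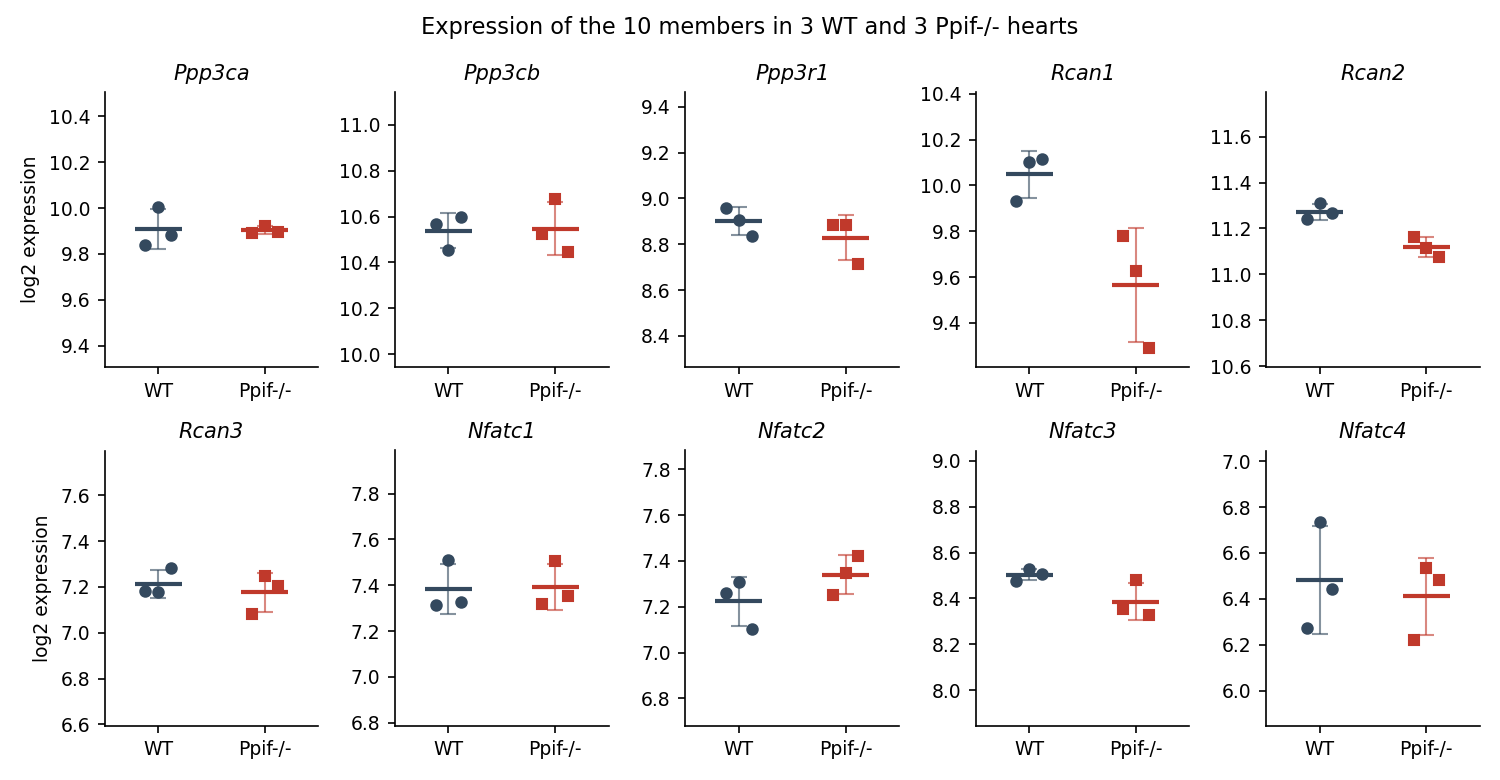
Log2 expression (vertical axes, each spanning 1.2 log2 units around the gene's own mean) of the 10 genes in 3 WT hearts (circles) and 3 Ppif-/- hearts (squares), with thick lines for group means and thin bars for ± 1 SD. The groups do not overlap for Rcan1 (9.29 to 9.78 against 9.93 to 10.11) and Rcan2 (11.08 to 11.16 against 11.24 to 11.31), and they overlap for the other 8. Of all tested probe sets 19.8% had groups without overlap.

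The NFAT genes gave no common direction. Nfatc1, known for its role in the endocardium and heart valves, was at 7.32, 7.50 and 7.35 in the Ppif-/- hearts and at 7.31, 7.51 and 7.33 in the WT hearts. The sets of values nearly coincided, with 1 heart of each genotype above the other 2. The difference was 0.01 ± 0.09, with a 95% interval of 87.7% to 115% of WT (adjusted p = 0.985).

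Nfatc2, the NFAT best known from T cells, was at 7.25, 7.35 and 7.42 in Ppif-/- hearts and at 7.26, 7.31 and 7.10 in WT hearts. It was the member with the highest estimate, although the groups overlapped. The difference of 0.12 ± 0.08 stood for 108% of WT (94.98% to 124%, adjusted p = 0.612). The 7 T and NK cell markers were dim in both genotypes, with a mean of 4.86 to 5.04 in Ppif-/- and 4.91 to 4.98 in WT hearts, and 0 of them passed in limma (1 at a nominal p under 0.05).

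Nfatc3, an NFAT known to take part in calcineurin-driven hypertrophy, was at 8.35, 8.48 and 8.33 in the Ppif-/- hearts and at 8.48, 8.53 and 8.51 in the WT hearts. The groups touched, since Ppif-/- heart 2 and WT heart 1 had almost equal values. The difference was -0.12 ± 0.07, or 92.2% of WT (82.4% to 103%, adjusted p = 0.533).

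Nfatc4, which is known to bind GATA4, was at 6.22, 6.53 and 6.48 in the Ppif-/- hearts and at 6.27, 6.74 and 6.44 in the WT hearts. It had the widest spread of the 10 genes, with residual SD 0.20, and its groups overlapped. The difference of -0.07 ± 0.13 had a 95% interval of 76.8% to 118% of WT (adjusted p = 0.88), so differences inside these bounds are compatible with the 3 hearts per genotype. Nfatc4 is on chromosome 14 as well, with 939 genes between it and Ppif. Of the 310 of those read by a probe set of their own, 0 passed the limma threshold. A nominal p under 0.05 was found for 27, beside 12.9% of all tested probe sets.

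Counted over the list, 0 of the 10 genes passed an adjusted p of 0.05 in limma in either direction, while 1.09% of all tested probe sets did (0.624% higher and 0.461% lower in Ppif-/- hearts). At a nominal p under 0.05 there were 2 of the 10, both lower, against 12.9% of all tested probe sets in either direction and 6.81% lower. The groups did not overlap for 2 of the 10, both lower, and 19.8% of all tested probe sets had groups that did not overlap, 10.6% with Ppif-/- hearts lower. The 2 lower genes are a larger share of the 10 than the 6.81% and 10.6% over all tested probe sets. With 10 genes such a count is too small to read, and no set test was made, so the counts say nothing particular about the list. With 3 hearts per genotype, the smallest 2-sided p of an exact permutation test is 0.1, so limma's moderated test was used.

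Of the 10 estimates 7 were below 0 and 3 above, with a median of -0.05 beside a median of -0.002 over all tested probe sets. The median size of the difference, without its sign, was 0.07 for the 10 genes and 0.08 for all tested probe sets. For 9 of the 10 the estimate was within 0.2 of 0, as it was for 83.55% of all tested probe sets, and Rcan1 was the exception. The genes varied little between hearts of one genotype: their median residual SD was 0.09, beside 0.11 over all tested probe sets. Rcan1 was among the more variable ones, with 14.2% of tested probe sets above its residual SD of 0.19.

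**Figure D2:**
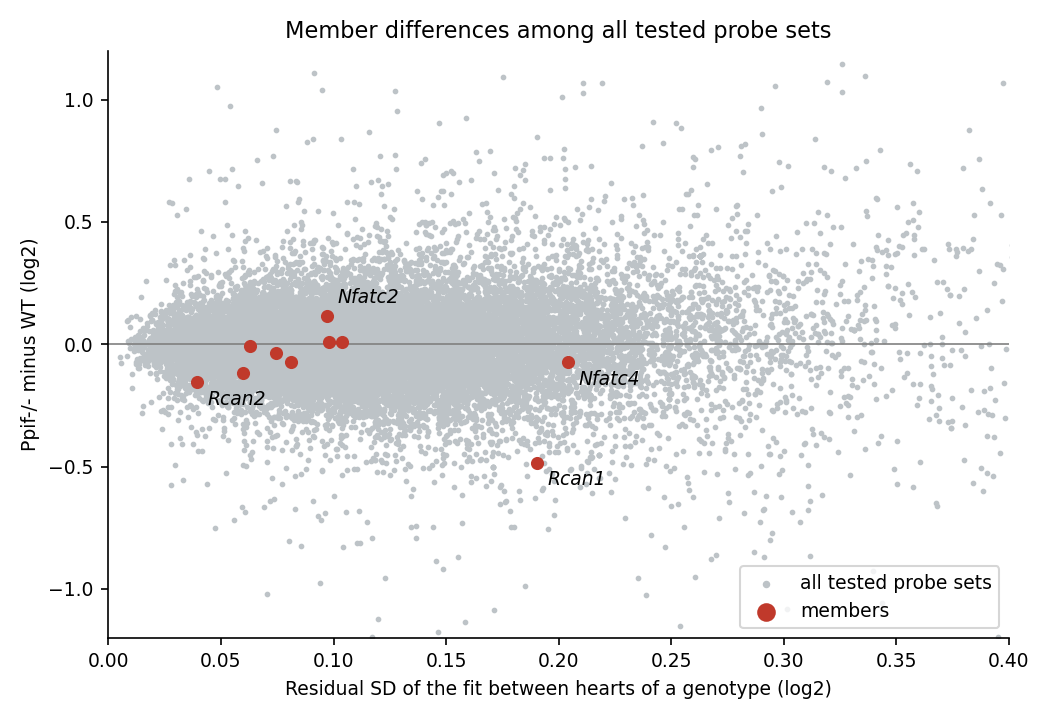
Difference between Ppif-/- and WT hearts (vertical axis, log2) against the residual SD between hearts of one genotype (horizontal axis, log2) for all tested probe sets (grey points) and the 10 genes (red points). The axes leave out 243 probe sets with a residual SD above 0.4 or a difference beyond 1.2; Rcan1 lies at -0.48 and the other 9 within 0.2 of 0.

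Other genes of the pathway were taken from 5 lists, chosen with earlier results of these data known. Of 53 listed genes 49 had a probe set of their own. Of these 1 rose, 0 fell and the others did not pass, beside 1.09% of all tested probe sets that passed in either direction. At a nominal p under 0.05 there were 7 higher and 4 lower, beside 12.9% of all tested probe sets in either direction. The median difference was 0.03, and the groups did not overlap for 11 of the 49, beside 19.8% of all tested probe sets.

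Among 4 further subunit and calmodulin genes, 0 passed in limma and 1 had a nominal p under 0.05. This was Ppp3cc, the gene of the gamma catalytic isoform, known mainly from testis, at 8.92 to 9.07 in Ppif-/- and at 9.26 to 9.34 in WT hearts. All Ppif-/- hearts were lower, by 0.29 ± 0.07 on average, which did not pass (adjusted p = 0.13). Calm2, a calmodulin gene, stood at 0.06 ± 0.08.

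Among 13 genes of proteins that anchor or bind calcineurin, 0 passed in limma and 1 had a nominal p under 0.05. This was Akap5, which encodes an anchoring protein that holds calcineurin and protein kinase A together at the membrane. It was at 7.01, 7.43 and 7.04 in Ppif-/- and at 6.42, 6.00 and 6.63 in WT hearts, with all Ppif-/- hearts above all WT hearts. The difference of 0.81 ± 0.17 did not pass (adjusted p = 0.0897). Fkbp1a, the FK506-binding protein through which that drug inhibits calcineurin, stood at 0.12 ± 0.07.

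Among 15 genes of kinases that phosphorylate NFAT and of its nuclear transport, 0 passed in limma and 2 were lower at a nominal p under 0.05. Homer2, a scaffold protein that competes with calcineurin for NFAT, was at 8.92, 8.91 and 8.68 in Ppif-/- and at 9.19, 9.11 and 9.30 in WT hearts. Dyrk2, a kinase that phosphorylates NFAT, was at 7.76, 7.98 and 7.54 in Ppif-/- and at 8.17, 8.09 and 8.19 in WT hearts. Neither pair of groups overlapped. The differences of -0.36 ± 0.09 and -0.39 ± 0.11 did not pass (adjusted p = 0.138 and 0.181).

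Among 10 genes of NFAT partners and relatives, 1 rose and 0 fell. At a nominal p under 0.05 there were 3 higher (Fosl2, Fos and Jun) and 0 lower, beside 12.9% of all tested probe sets in either direction. Fosl2, a member of the AP-1 family whose proteins bind DNA together with NFAT, was at 9.07, 8.63 and 8.79 in Ppif-/- and at 8.07, 8.01 and 8.27 in WT hearts. All Ppif-/- hearts were higher, and the difference was 0.71 ± 0.12 (1.64-fold, adjusted p = 0.0457). Fos (1.67 ± 0.35, adjusted p = 0.0795) and Jun (0.67 ± 0.12, adjusted p = 0.0582), named after their values were seen, also had all Ppif-/- hearts above all WT hearts and did not pass. Fos and Jun are also on the list of immediate early genes given below. The Fosl2 call was lost without any 1 of the 6 hearts (adjusted p = 0.0512 to 0.149), with unnamed probe sets tested as well (0.141) and with the replicate number as a block (0.0675).

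Among 7 transcripts linked to calcineurin signalling in heart muscle, 0 passed in limma. There were 4 with a nominal p under 0.05, 3 higher and 1 lower, beside 12.9% of all tested probe sets in either direction. The natriuretic peptide genes Nppa and Nppb, both known as markers of cardiac stress, went in different directions. Nppa was at 12.17, 12.06 and 11.97 in Ppif-/- and at 11.24, 11.70 and 11.23 in WT hearts, without overlap (0.68 ± 0.13, adjusted p = 0.0681). Nppb was at 9.89, 9.33 and 8.86 in Ppif-/- and at 9.89, 10.47 and 10.63 in WT hearts, with Ppif-/- heart 1 and WT heart 1 at nearly the same value (-0.97 ± 0.27, adjusted p = 0.183).

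**Figure D3:**
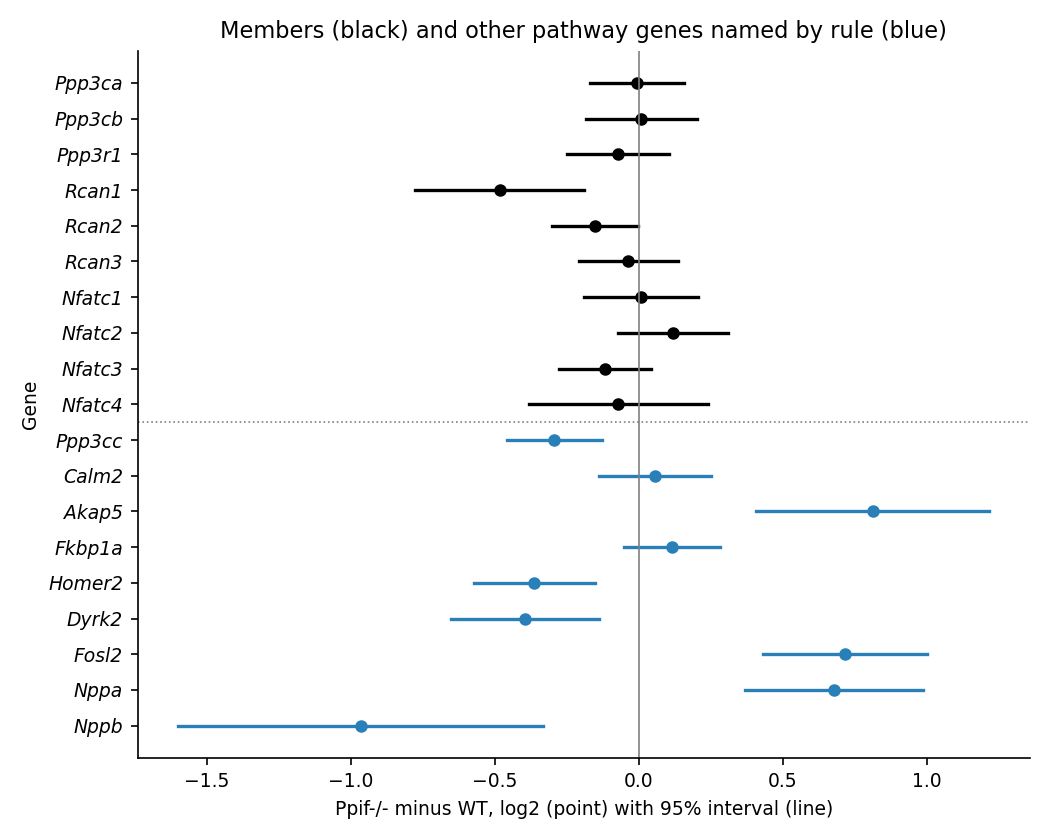
Differences between Ppif-/- and WT hearts on the log2 scale (horizontal axis, point) with 95% intervals of the limma fit (line) for the 10 genes (black) and 9 further pathway genes (blue, vertical axis by name). Of the black intervals those of Rcan1 and Rcan2 leave out 0, before any adjustment over the tested probe sets.

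Other lists differed between the genotypes in the same hearts. The counts below stand beside 0.624% of all tested probe sets that rose, 0.461% that fell and 12.9% with a nominal p under 0.05. Of 20 immediate early genes, Fos and Jun again among them, 8 rose and 0 fell, and 15 were higher at a nominal p under 0.05. Their list mean was 8.21 to 8.49 in Ppif-/- and 7.44 to 7.51 in WT hearts. Of 17 clock genes 6 rose and 1 fell, with a list mean of 8.57 to 8.72 in Ppif-/- and 8.24 to 8.36 in WT hearts. Of 7 markers of smooth muscle and pericytes 1 fell, Tagln, and 5 had groups without overlap, 4 lower and 1 higher, beside 19.8% of all tested probe sets in either direction and 10.6% lower. That list's mean was 8.95 to 9.04 in Ppif-/- and 9.18 to 9.31 in WT hearts. Of 7 macrophage markers 1 rose, Cd68 (0.56), with 2 higher and 1 lower at a nominal p under 0.05, the lower one being Cd163 (-0.53, adjusted p = 0.0964). Of 7 fibroblast markers 1 fell, Pdgfra (-0.44), which was also the 1 with a nominal p under 0.05, while Col1a1 stood at 0.21 and Col1a2 at 0.27. In limma 0 of 8 endothelial, 0 of 10 cardiomyocyte, 0 of 3 B cell, 0 of 3 red blood cell, 0 of 4 adipocyte and 0 of 6 skeletal muscle markers passed, with 1, 1, 2, 1, 0 and 0 at a nominal p under 0.05. The part of any of these in the Rcan1 value was not tested.

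By pattern over the 6 hearts, the transcripts most like Rcan1 among the 21788 compared were Hapln4, a link protein of the extracellular matrix (Pearson r = 0.998), Nucb1, a calcium-binding protein of the Golgi (0.997), Tbc1d23 (0.996), Psip1, a chromatin-binding coactivator (0.995) and Prkcq, protein kinase C theta (0.994). In these 5 the Ppif-/- hearts were also all below the WT hearts, with differences from -0.63 (Prkcq) to -0.08 (Nucb1), and none passed in limma (adjusted p = 0.152 to 0.67). With both genotype means taken away, r was 0.983 to 0.994, and Spearman's rho over the 6 hearts was 0.943 to 1. Without the 2 hearts farthest from the Rcan1 median, Ppif-/- heart 3 and WT heart 3, r was 0.987 to 0.998. These correlations rest on 6 arrays, and 157 probe sets reached an r above 0.95, 0.721% of those compared. The 5 were picked for the highest r over these same hearts. Their other coefficients and their lack of overlap follow from that choice and are no separate support for a link with Rcan1. Hapln4 was dim, with means of 4.73 in Ppif-/- and 4.92 in WT hearts.

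**Figure D4:**
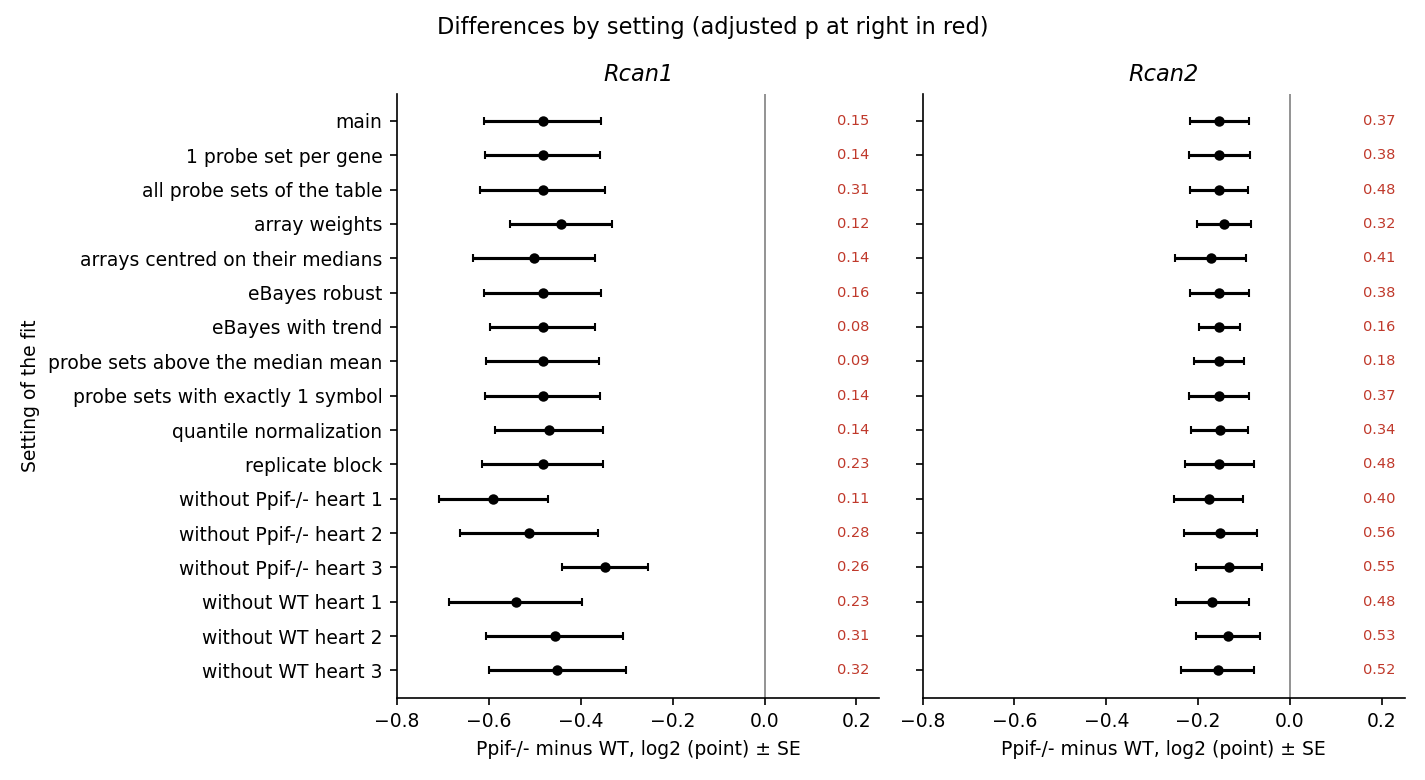
Differences of Rcan1 and Rcan2 between Ppif-/- and WT hearts (horizontal axes, log2, points with ± SE bars) under the reported fit and 16 other settings (vertical axis), with the adjusted p in red. Both genes stay below 0 in every setting shown, Rcan1 between -0.59 and -0.35 and Rcan2 between -0.18 and -0.13, and no adjusted p is under 0.05. Leaving out 1 heart could not turn their sign, since the groups do not overlap.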

How the data were processed

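RNA of 6 mouse hearts was read on Affymetrix Gene 1.0 ST arrays, 1 per heart. The authors deposited log2 values made with RMA, per the submitters' processing notes, a method of background correction, normalisation between arrays and summary over probes. Its software, version and filters: not given in the sources used here. Differences of dim transcripts are compressed by RMA. Values were used as deposited.

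Names came from the platform annotation, updated through Entrez identifiers and the gene table of GRCm38.p6: 21789 of 35557 had 1 symbol, of which 21698 matched, 1621 had several and 12147 none. The 23410 with a symbol were tested with limma 3.58.1 in R 4.3.3 (lmFit, eBayes, 2-sided, all 6 arrays, Benjamini-Hochberg, threshold 0.05). Intervals are moderated 95% intervals. Where a listed gene had several probe sets, the one with the highest mean was used. No label says which hearts came from separate litters, and no batch was given.

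The members and gene lists were chosen with earlier results of these data known. Named were all members, Ppif and the 5 transcripts most like Rcan1. Of each pathway list the genes past the threshold were named, or else the 2 with the smallest p. Cell type markers that passed are also named. Cd163, Col1a1, Col1a2 and Myl7, which did not pass, were named outside this rule, as were Fos and Jun. Other cell type markers that did not pass are not named. The procedure was tested on simulated data. No label says that the replicate numbers pair the hearts, so the reported fit was unpaired. Alternatives are given in the closing section.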

Additional observations from a re-analysis of the deposited data

How the results depend on the processing

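Of the 10 genes, 0 passed in the reported fit or in any of the 16 alternatives, with Nfatc4 not tested in the one on probe sets above the median mean. Rcan1, Rcan2, Ppp3r1, Nfatc2 and Nfatc3 kept their direction in all 16. For Rcan1 and Rcan2, whose groups did not overlap, leaving out 1 heart could not turn it. Settings that change only the variance, the block or the probe sets tested leave every estimate as it was. The others lie near 0, and their sign turned in some. With arrays centred on their medians Nfatc1 was at -0.0106 and Ppp3cb at -0.0106, with array weights Nfatc4 was at 0.037 and Ppp3ca at 0.028, and with quantile normalisation Ppp3ca was at 0.013. Leaving out 1 heart gave -0.048 to 0.071 for Nfatc1, -0.18 to 0.055 for Nfatc4, -0.041 to 0.043 for Ppp3ca, -0.055 to 0.059 for Ppp3cb and -0.072 to 0.010 for Rcan3. No scaling moved the median of all tested probe sets by over 0.1.

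The count over all tested probe sets, 254, was 160 with a replicate block, 405 on probe sets above the median mean, 131 on all probe sets, 453 with a variance trend, 386 with array weights and 131 to 171 without 1 heart. The deviations of same-numbered hearts correlated at -0.08, -0.06 and 0.12, and those of hearts with unlike numbers at -0.13 to 0.16. With so few hearts this cannot tell whether the numbers pair them. In the limma fit with the replicate block Rcan1 had an adjusted p of 0.234. Of the pathway genes, 1 in the reported fit, 0 passed on all probe sets, 1 with the replicate block (Fos in place of Fosl2), 2 with quantile normalisation, 3 on probe sets above the median mean, with centred arrays or with array weights, 4 with a variance trend, and 0 to 1 without 1 heart. These were Fosl2, Fos, Jun and Nppa, of which Fos and Jun were named after their values were seen. Over all lists 19 genes passed, 28 with a variance trend, 26 on probe sets above the median mean, 24 with centred arrays, 13 with the replicate block, 7 on all probe sets and 9 to 14 without 1 heart.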

Other observations

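One heart gave the lowest value for many of the genes, which was noticed after the values were seen. Ppif-/- heart 3 was the lowest of the 6 hearts for 5 of the 10 (Ppp3cb, Ppp3r1, Rcan1, Rcan2 and Nfatc3), as it was for 19.1% of all tested probe sets. WT heart 2 was the highest of the 6 for 5 of the 10, as it was for 23.1% of all tested probe sets. Members are not independent of each other within a heart, and no test was made of these counts.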
